A study of Mus musculus with 90 samples.

Results

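Embryoid bodies made from WT mouse embryonic stem cells were compared on day 10 against day 6 of differentiation, the late step of the embryoid body series. The 6 libraries, 3 of day 10 and 3 of day 6, are all WT embryoid body libraries of these days among the 90 samples of the series, and were chosen by their sample labels. The cells are of the J1 line and carry unaltered CBX7, which belongs to Polycomb repressive complex 1 (PRC1). The stem cells had been grown on a feeder layer with the cytokine LIF. After removal of the feeders they were set in hanging drops without LIF, in IMDM medium with fetal bovine serum. From 4 days on, the bodies were pooled and kept in suspension, so that each library stands for a pool of many bodies. No agent that directs the cells towards 1 fate was named for this series. Other embryoid bodies of the study carried CBX7-CaPS, in which CBX7 gained the domain by which CBX2 compacts chromatin and forms condensates, CBX7-mCaPS, where that domain is mutated, or were made to lack CBX7 (KO). In these lines too each day has 3 libraries, and apart from CBX7 the culture was the same. Library quality differed between lines, as given with the comparison of lines.

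Embryoid bodies are aggregates of pluripotent cells that differentiate without a body plan when LIF is withdrawn. The order of events resembles that of the early mouse embryo: the pluripotency network is shut down, primitive streak genes are turned on for a short time, and mesoderm gives rise to beating heart muscle, vessels and primitive red blood cells, beside endoderm and ectoderm. Polycomb complexes keep genes of development silent in stem cells, and CBX proteins are the PRC1 subunits that bind trimethylated lysine 27 of histone H3.

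RNA was sequenced after depletion of ribosomal RNA, and the deposited values are read counts per gene. Library totals were 15.7 to 37.7 M counts on day 10 and 13.1 to 41.0 M counts on day 6. The replicate 1 libraries of both days stood apart. Even numbers were 42.1% to 42.7% of all counts between 1 and 20 there, and 73.5% to 75.5% in replicates 2 and 3. The share of counts on Rn45s, the ribosomal precursor RNA, was 2.73% to 3.03% in replicate 1 and 16.8% to 49.5% in replicates 2 and 3. Gapdh, a glycolytic enzyme gene, had 3.47, 445 and 128 CPM on day 10, against 6.08, 496 and 144 CPM on day 6. Spearman correlations within a day were 0.936 to 0.967 between replicate 1 and another replicate and 0.985 to 0.987 between replicates 2 and 3. Values without replicate 1 are therefore given beside the results. The labels do not say whether replicates come from separate cultures, so p-values measure the spread between libraries, which may be technical.

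On day 10, 1613 genes were higher and 1266 lower than on day 6 among 17791 genes tested (edgeR quasi-likelihood test, adjusted p below 0.05). That is 9.07% of all genes tested in the one direction and 7.12% in the other, or 16.2% together, and the median log2 change of all genes was 0. Counts in the gene lists below are to be read beside these shares. The 3 libraries of day 10 lay above all those of day 6 for 17.9% of genes and below them for 15.9%. Libraries of the same number deviated together, mostly replicate 1 against the others, and the labels state no pairing. A fit with the replicate number as a block called 2251 genes higher and 2164 lower. Without replicate 1, 2 or 3 the counts were 639, 1028 and 861 higher and 310, 698 and 617 lower. No gene called here had the opposite sign in any of these fits. Levels are CPM, counts relative to the TMM-scaled library size, given in the order of replicates 1, 2 and 3. Changes are log2 ratios of day 10 over day 6 ± SE, and "without replicate 1" leaves out that number on both days.

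**Figure D1:**
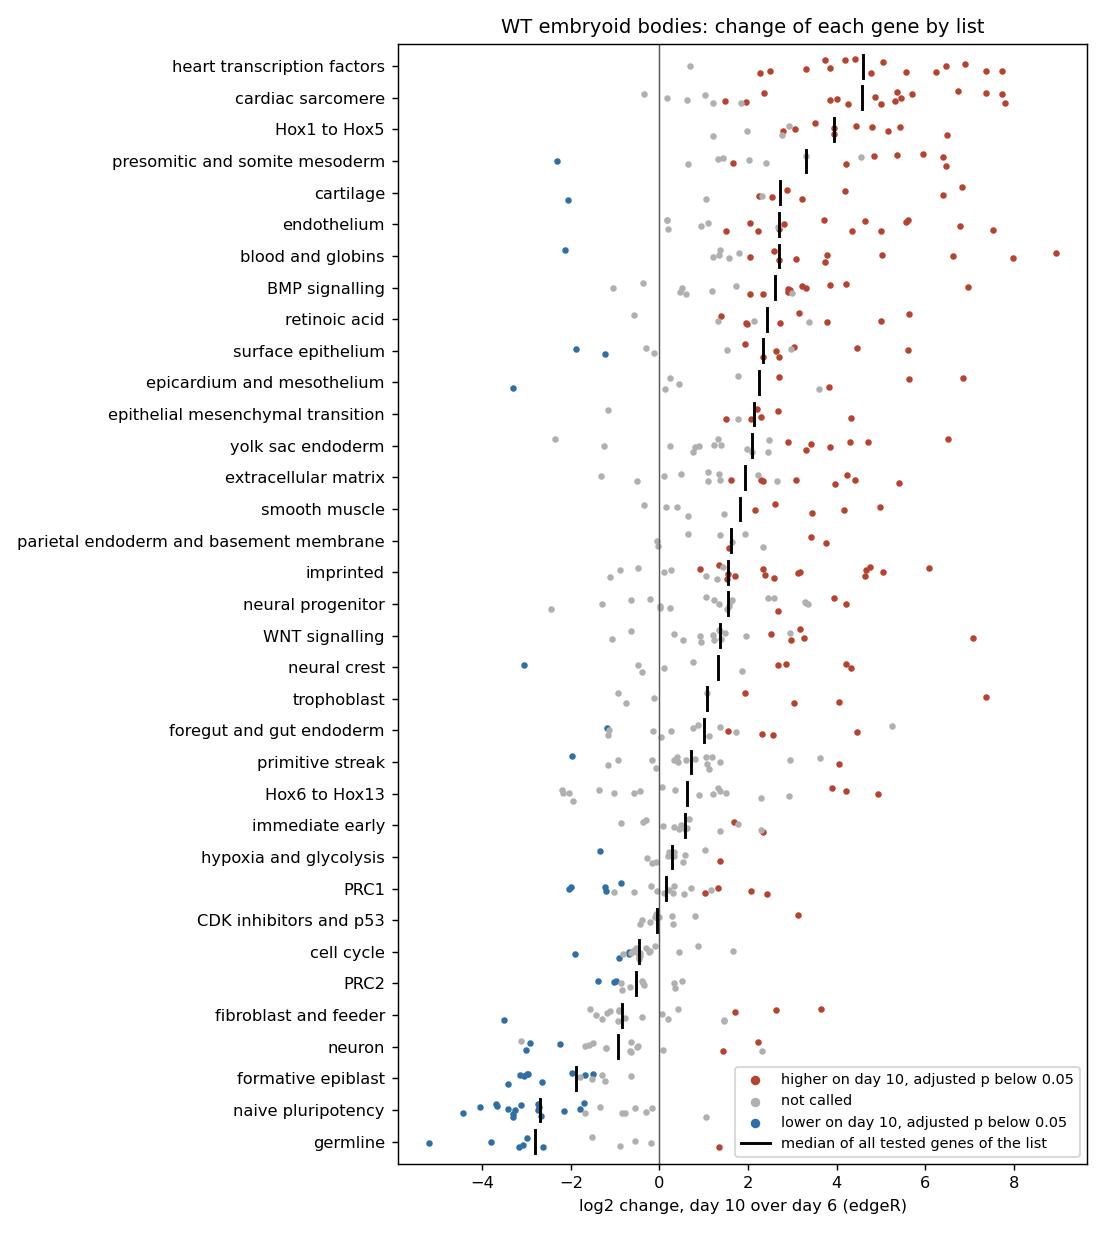
Log2 change of day 10 over day 6 (horizontal axis) for every tested gene of 35 gene lists (vertical axis), red or blue where the gene was higher or lower at an adjusted p below 0.05 and grey otherwise; genes with no count on one of the days are not drawn but enter the median (black bar). Heart genes stand at the top with medians of 4.60 and 4.57, and pluripotency and germline genes at the bottom.

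Genes of the naive pluripotency network fell together. Of 24 tested genes 16 were lower and 0 higher, against 7.12% and 9.07% of all genes, with a median log2 change of -2.70. Pou5f1, the core factor OCT4, had 36.8, 88.1 and 119.7 CPM on day 10, against 527, 503 and 611 CPM on day 6 (log2 change -2.75 ± 0.39, adjusted p = 4.17e-05). Nanog, another core factor, had 8.90, 39.5 and 51.3 CPM on day 10, against 95.2, 184 and 165 CPM on day 6 (log2 change -2.15 ± 0.42, adjusted p = 0.000634). Zfp42, the marker REX1, had 12.1, 10.6 and 17.4 CPM on day 10, against 131, 49.1 and 83.7 CPM on day 6 (log2 change -2.72 ± 0.69, adjusted p = 0.00644). All 3 day 10 libraries lay below all 3 day 6 libraries for each of these genes, and replicate 1 was the lowest day 10 library for Pou5f1 and Nanog. Esrrb, an orphan receptor of the naive state, had 4.89, 19.6 and 25.2 CPM on day 10, against 98.7, 70.3 and 164 CPM on day 6 (log2 change -2.74 ± 0.75, adjusted p = 0.011). The largest fall of the list was that of Dppa2, a DNA-binding factor of early embryos, with 0.667, 1.61 and 1.79 CPM on day 10, against 30.2, 27.0 and 32.6 CPM on day 6 (log2 change -4.45 ± 0.81, adjusted p = 0.000359). The nodal cofactor Tdgf1, the growth factors Gdf3 and Fgf4, Dppa4 and L1td1 were lower by 2.68 to 3.70 on the log2 scale, as were Sox2, Utf1, Dppa5a, Tdh and Nr0b1 by 1.79 to 4.05. Others did not pass. Lin28a, an RNA-binding protein of stem and progenitor cells, had 372, 339 and 479.8 CPM on day 10, against 457, 506 and 509 CPM on day 6 (adjusted p = 0.568). Klf4, a reprogramming factor, had 3.07, 11.7 and 17.7 CPM on day 10, against 5.80, 10.2 and 20.7 CPM on day 6 (adjusted p = 0.902). Both overlapped between the days. Without replicate 1, 2 or 3 the number of lower genes was 8, 14 and 13. Zfp42, Esrrb, Sox2, Utf1, Dppa5a, Tdh and Nr0b1 lost their calls without replicate 1 (adjusted p = 0.118, 0.112, 0.137, 0.0822, 0.0707, 0.0668 and 0.0695), Utf1 without replicate 2 (adjusted p = 0.085), and Esrrb and Utf1 without replicate 3 (adjusted p = 0.0581 and 0.147). In bulk samples a smaller share of pluripotent cells and less RNA per cell cannot be told apart.

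Genes of the formative and primed epiblast, the state that follows naive pluripotency, were also lower: 9 of 14 fell and 0 rose, with a median of -1.88. Dnmt3b, the de novo DNA methyltransferase of the epiblast, had 162, 278 and 290.4 CPM on day 10, against 1626, 1656 and 1349 CPM on day 6 (log2 change -2.66 ± 0.55, adjusted p = 0.00126). Pou3f1, the factor OCT6, had 2.98, 12.3 and 10.9 CPM on day 10, against 75.8, 60.6 and 95.8 CPM on day 6 (log2 change -3.14 ± 0.52, adjusted p = 0.000142). The libraries of the days did not overlap for either gene. Nodal, a signal that keeps the epiblast and later patterns the streak, had 9.88, 10.4 and 21.2 CPM on day 10, against 52.1, 60.3 and 50.3 CPM on day 6 (log2 change -1.97 ± 0.42, adjusted p = 0.00151), and its feedback inhibitors Lefty1 and Lefty2 fell too (log2 change -3.42 ± 0.65 and -3.002 ± 0.49). Fgf5, the classical marker of the primed epiblast, and Otx2, a factor of the anterior epiblast, had lower values in all day 10 libraries and did not pass the test (adjusted p = 0.0927 and 0.157). Fgf5 and Otx2 passed as lower with the replicate block (adjusted p = 0.0374 and 0.0299). Zic2 and Dnmt3l lost their calls without replicate 1 (adjusted p = 0.103 and 0.116), Zic2 without replicate 2 (adjusted p = 0.185), and Dnmt3l without replicate 3 (adjusted p = 0.0503). The sum of the list was 409.4 to 830.1 CPM on day 10 and 2932 to 3044 CPM on day 6.

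Germline genes were lower in 6 of 12 cases and higher in 1, with a median of -2.81 (-2.08 with Tex101, which has no count on day 10, at its bound). Ddx4, the germ cell RNA helicase, had 0.979, 0.902 and 3.10 CPM on day 10, against 16.9, 11.3 and 14.8 CPM on day 6 (log2 change -3.08 ± 0.54, adjusted p = 0.000259). Dazl, an RNA-binding protein of germ cells, had 0.623, 0.392 and 0.499 CPM on day 10, against 7.48, 1.23 and 4.99 CPM on day 6 (log2 change -3.17 ± 0.73, adjusted p = 0.00317). Mael, a piRNA pathway gene, had 0.178, 0.314 and 1.39 CPM on day 10, against 13.2, 5.58 and 8.75 CPM on day 6 (log2 change -3.80 ± 0.81, adjusted p = 0.00161). The day 10 libraries lay below those of day 6 in all of these. Prdm1, a repressor that acts in germ cell founders and in endoderm and mesoderm as well, was the one that rose, with 17.6, 34.6 and 36.8 CPM on day 10, against 10.7, 12.7 and 11.6 CPM on day 6 (log2 change 1.34 ± 0.36, adjusted p = 0.00939). Dazl, Mael, Hormad1, Tex14 and Sohlh2 lost their calls without replicate 1 (adjusted p = 0.0594, 0.0517, 0.0529, 0.127 and 0.196), Prdm1 without replicate 2 (adjusted p = 0.0594), and Prdm1 and Sohlh2 without replicate 3 (adjusted p = 0.113 and 0.111).

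**Figure D2:**
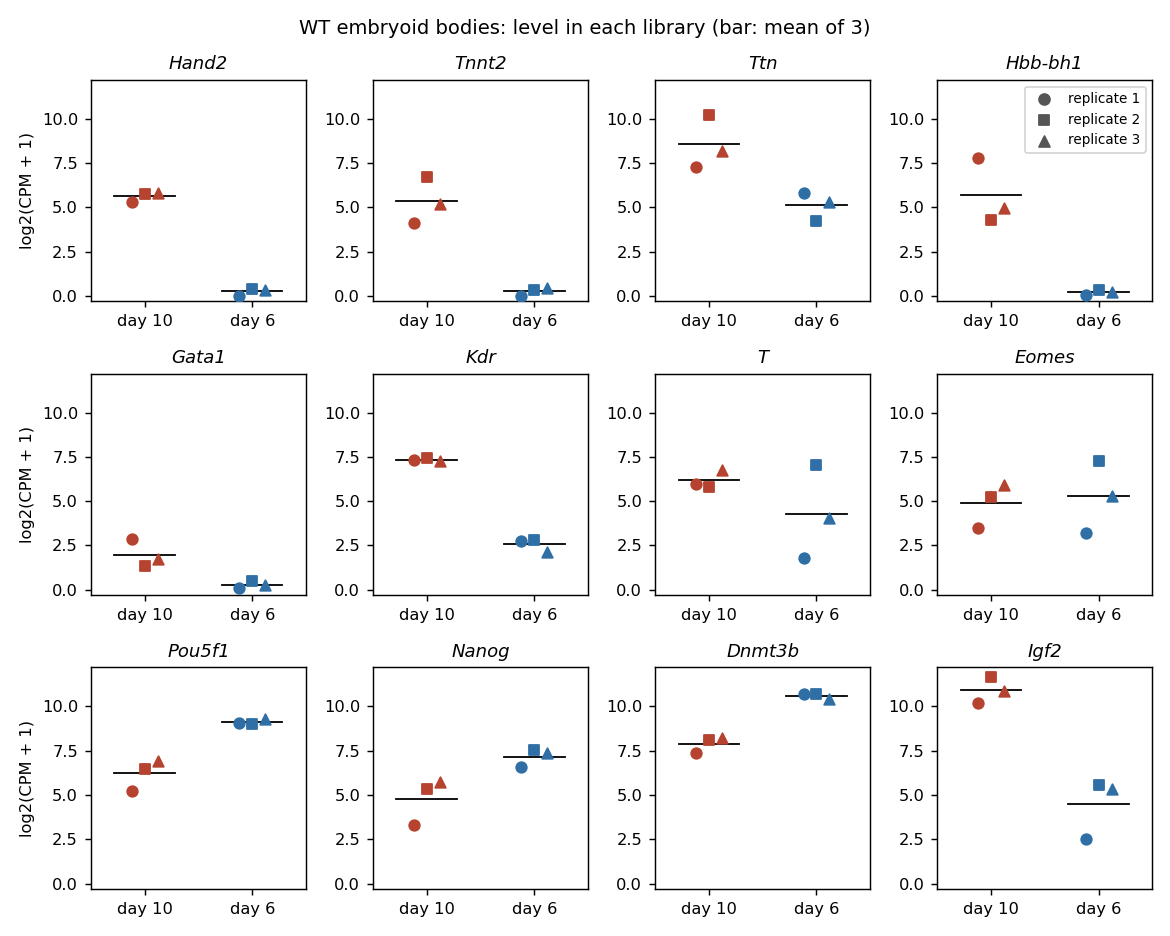
Level of 12 genes in each library as log2(CPM + 1) (vertical axis), day 10 left and day 6 right, with replicates 1, 2 and 3 as circle, square and triangle and the mean as a bar. Hand2, Kdr and Igf2 are high in all day 10 libraries, Hbb-bh1 and Gata1 highest in replicate 1 of day 10, T and Eomes highest in replicate 2 of day 6, and Pou5f1, Nanog and Dnmt3b high on day 6.

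The primitive streak list had no common direction between the days. Of 18 genes 1 rose, 1 fell and 16 did not pass, with a median of 0.70. T, the factor brachyury of the streak and early mesoderm, had 61.7, 54.4 and 106 CPM on day 10, against 2.48, 129 and 15.3 CPM on day 6 (log2 change 0.60 ± 1.13, adjusted p = 0.796). Eomes, a T-box factor of the streak, had 10.2, 37.0 and 58.7 CPM on day 10, against 8.27, 155 and 38.5 CPM on day 6 (log2 change -0.93 ± 0.81, adjusted p = 0.506). Mixl1, a homeobox gene of the streak, had 3.20, 3.65 and 10.7 CPM on day 10, against 0.281, 33.8 and 5.46 CPM on day 6 (log2 change -1.17 ± 1.05, adjusted p = 0.52). In each of them replicate 2 of day 6 was the highest of its day and replicate 1 the lowest, and the range within day 6 was wider than the gap between the days. The same order held for Gsc, a gene of the organizer, with 3.07, 5.41 and 5.91 CPM on day 10, against 0.450, 12.22 and 3.58 CPM on day 6. It held as well for Fgf8, a growth factor of the streak, with 7.43, 28.7 and 33.8 CPM on day 10, against 2.53, 54.8 and 16.2 CPM on day 6. Mesp1, the factor of cardiovascular founders, had 12.9, 4.04 and 13.7 CPM on day 10, against 0.113, 2.07 and 0.262 CPM on day 6 (log2 change 3.63 ± 1.35, adjusted p = 0.065). Mesp1 passed as higher with the replicate block (adjusted p = 0.0338). The gene that rose was Cdx2, a homeobox gene of the tail end of the embryo and of trophoblast, with 15.8, 1.65 and 18.1 CPM on day 10, against 0.169, 1.09 and 0.811 CPM on day 6 (log2 change 4.05 ± 0.85, adjusted p = 0.00145). The gene that fell was Nodal. With the replicate block 2 genes rose and 1 fell.

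Later paraxial mesoderm moved further. Of 15 presomitic and somite genes 7 rose and 1 fell, with a median of 3.30. Meox1, a homeobox gene of somites, had 7.83, 6.04 and 8.72 CPM on day 10, against 0.0563, 0.145 and 0.0477 CPM on day 6 (log2 change 6.47 ± 0.97, adjusted p = 6.1e-05). Foxc1 and Foxc2, forkhead factors of somites and vessels, rose by 4.84 ± 0.83 and 6.41 ± 1.21 on the log2 scale. Pax1, a gene of the sclerotome, had 0.356, 19.96 and 2.76 CPM on day 10, against 0.113, 0.218 and 0.0477 CPM on day 6 (log2 change 5.96 ± 1.52, adjusted p = 0.00666), with most of the RNA in replicate 2. Msgn1, a factor of the presomitic mesoderm, had 2 counts in all on day 6 and rose, with a ratio of day 10 over day 6 of 51.2 (95% interval 13.8 to 429), an exact interval that covers counting error only. Such intervals treat counts as independent, and with mostly even numbers in replicates 2 and 3 they may be too narrow. Tbx6, a T-box factor of the same tissue, had 1.38, 3.14 and 7.56 CPM on day 10, against 0.731, 1.31 and 0.930 CPM on day 6 (adjusted p = 0.0703). Tcf15, the somite factor paraxis that stem cells also express, fell, with 2.45, 1.137 and 5.30 CPM on day 10, against 12.3, 7.47 and 25.0 CPM on day 6 (log2 change -2.32 ± 0.77, adjusted p = 0.0358). Lfng did not pass with the replicate block (adjusted p = 0.0515). Msgn1, Tcf15, Pax3 and Lfng lost their calls without replicate 1 (adjusted p = 0.126, 0.167, 0.0667 and 0.17), Pax1, Tcf15 and Lfng without replicate 2 (adjusted p = 0.126, 0.135 and 0.159), and Msgn1, Tcf15 and Lfng without replicate 3 (adjusted p = 0.165, 0.102 and 0.193).

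The transcription factors of the heart rose almost as a group: 15 of 16 were higher on day 10 and 0 lower, with a median of 4.60. Hand2, a factor of the heart fields, had 38.3, 53.9 and 55.2 CPM on day 10, against 0, 0.326 and 0.286 CPM on day 6 (log2 change 7.74 ± 1.18, adjusted p = 7.11e-05). Hand1, its relative, had 45.2, 44.9 and 108 CPM on day 10, against 0.0563, 0.798 and 0.286 CPM on day 6 (log2 change 7.37 ± 1.16, adjusted p = 9.9e-05). Mef2c, a factor of cardiac progenitors and muscle, had 84.2, 64.6 and 39.9 CPM on day 10, against 0.675, 0.616 and 0.811 CPM on day 6 (log2 change 6.47 ± 0.73, adjusted p = 4.45e-06). All 3 genes were high in every day 10 library and under 1 CPM in every day 6 library. Tbx5, a T-box factor of the first heart field, had 1.69, 9.22 and 8.90 CPM on day 10, against 0, 0.254 and 0 CPM on day 6 (log2 change 6.25 ± 1.30, adjusted p = 0.00126). Nkx2-5, the homeobox factor of the heart, had 1.02, 8.71 and 5.30 CPM on day 10, against 0.0563, 0.761 and 0.191 CPM on day 6 (log2 change 3.85 ± 1.13, adjusted p = 0.0176). In both, replicate 1 was the lowest day 10 library. Gata4 had 30.9, 49.8 and 92.2 CPM on day 10, against 2.31, 15.6 and 12.7 CPM on day 6 (log2 change 2.49 ± 0.76, adjusted p = 0.0237), so that some of it was present on day 6 already. Isl1 of the second heart field, Tbx20, Tbx2, Hey2, Gata5, Gata6, Myocd, Smarcd3 and Irx4 rose by 2.27 to 6.89. Hopx, a small homeodomain protein, had 6.50, 9.02 and 4.86 CPM on day 10, against 5.34, 4.06 and 3.29 CPM on day 6 and did not pass (adjusted p = 0.39). The number of higher genes was 13, 14 and 12 without replicate 1, 2 or 3. Nkx2-5 and Gata4 lost their calls without replicate 1 (adjusted p = 0.0726 and 0.12), Irx4 without replicate 2 (adjusted p = 0.33), and Nkx2-5, Gata4 and Irx4 without replicate 3 (adjusted p = 0.127, 0.164 and 0.128).

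Genes of the sarcomere, the contractile unit of striated muscle, rose in 17 of 24 cases and fell in 0, with a median of 4.57 (4.14 with Csrp3 and Smpx, which have no count on day 6, at their bounds). Tnnt2, cardiac troponin T, had 16.5, 103 and 35.8 CPM on day 10, against 0, 0.254 and 0.382 CPM on day 6 (log2 change 7.73 ± 1.37, adjusted p = 0.000277). Myl4, an atrial myosin light chain, had 48.3, 75.5 and 39.1 CPM on day 10, against 0.281, 0.399 and 0.286 CPM on day 6 (log2 change 7.38 ± 1.142, adjusted p = 8.68e-05). Myl7, the other atrial light chain, had 91.0, 104 and 35.3 CPM on day 10, against 2.701, 1.49 and 1.12 CPM on day 6 (log2 change 5.46 ± 1.05, adjusted p = 0.000627). In each of them the days did not overlap, and replicate 2 was the highest day 10 library. Ttn, the giant spring protein titin, had 155, 1182 and 286 CPM on day 10, against 56.0, 17.9 and 39.0 CPM on day 6 (log2 change 3.85 ± 0.90, adjusted p = 0.00387). Myh6, the alpha heavy chain of cardiac myosin, had 28.2, 299 and 98.2 CPM on day 10, against 1.74, 4.57 and 3.96 CPM on day 6 (log2 change 5.36 ± 1.09, adjusted p = 0.00104). Myh7, the beta heavy chain, had 46.6, 282 and 74.0 CPM on day 10, against 0.338, 1.92 and 1.36 CPM on day 6 (log2 change 6.75 ± 1.21, adjusted p = 0.000307). In these 3 genes replicate 2 was again the highest and replicate 1 the lowest of day 10. Actc1, cardiac actin, had 17.3, 237 and 94.8 CPM on day 10, against 0.956, 5.62 and 2.10 CPM on day 6 (log2 change 5.32 ± 1.22, adjusted p = 0.00301). Csrp3, a Z-disc protein, had 2.40, 4.28 and 1.73 CPM on day 10 and no count in the 3 libraries of day 6, at least 77.4-fold higher against 3 counts over the group. Tnni1, the slow troponin I of the fetal heart, rose too (log2 change 7.81 ± 1.26, adjusted p = 0.000124). Tnni3, the troponin I of the adult heart, had 2.09, 2.98 and 1.92 CPM on day 10, against 1.07, 2.21 and 1.22 CPM on day 6 and did not pass (adjusted p = 0.398). The hormone gene Nppa had 0.578, 0.824 and 0.630 CPM on day 10, against 0.338, 0.508 and 0.906 CPM on day 6, with overlap. The number of higher genes was 16, 14 and 14 without replicate 1, 2 or 3. Ldb3 did not pass with the replicate block (adjusted p = 0.124). Tpm1 lost its call without replicate 1 (adjusted p = 0.194), Ttn and Ldb3 without replicate 2 (adjusted p = 0.155 and 0.784), and Myl2, Tpm1 and Ldb3 without replicate 3 (adjusted p = 0.0509, 0.104 and 0.0501).

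The stretch just before the gene start is shown for Actc1, Myl7 and Myh6, since these contractile genes rose on day 10. Each line holds the 150 bases before the start from RefSeq (GRCm38.p6), on the strand of the gene. Actc1 lies at chr2:114052876-114053025 (minus strand), Myl7 at chr11:5898783-5898932 (minus strand) and Myh6 at chr14:54966608-54966757 (minus strand). Capitals mark matches on either strand to GATAA, which GATA factors bind, to CACCC, which Kruppel-like factors bind, to CCAAT, the site of NF-Y, to TATAA, the core of the TATA box, to the CArG box of serum response factor, and to the MEF2 site.
Actc1: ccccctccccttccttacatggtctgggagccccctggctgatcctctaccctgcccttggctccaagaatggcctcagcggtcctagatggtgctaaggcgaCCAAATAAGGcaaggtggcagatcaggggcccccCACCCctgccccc
Myl7: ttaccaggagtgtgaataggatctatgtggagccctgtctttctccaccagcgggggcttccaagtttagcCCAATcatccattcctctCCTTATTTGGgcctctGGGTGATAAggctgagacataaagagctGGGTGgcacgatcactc
Myh6: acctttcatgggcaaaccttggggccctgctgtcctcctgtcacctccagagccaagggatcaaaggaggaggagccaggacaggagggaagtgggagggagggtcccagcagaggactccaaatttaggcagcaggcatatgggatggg
A CArG box begins 47 bases before the start in Actc1 and 61 bases before it in Myl7. In Myl7 a CACCC match on the other strand shares 1 base with a GATAA match. The Myh6 window holds none of these letters.

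Such windows were matched for 13440 of the 17791 tested genes. A CArG box was found in 5 of 23 windows of the sarcomere list (21.7%), against 0.796% of all windows, 1.34% of those of the 1194 matched genes that rose and 0.818% of those of the 978 that fell. GATAA was in 8 of these 23 windows (34.8%), against 8.00% of all windows, 10.1% of those of genes that rose and 7.67% of those of genes that fell. CACCC was in 13 of the 23 (56.5%), in 41.9% of all windows and in 50.0% of those of genes that rose. The share for CCAAT was 6 of the 23 against 27.6% of all, and for TATAA 5 of the 23 against 7.51%. The MEF2 site was in 1 of the 23 and in 0.893% of all windows. These counts describe letters in a short window and no test was made.

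Smooth muscle and epicardial genes rose in part. Of 10 smooth muscle genes 5 rose, and 4, 2 and 4 did without replicate 1, 2 or 3. Acta2, smooth muscle actin that early heart muscle also uses, had 75.2, 274 and 91.1 CPM on day 10, against 2.36, 8.01 and 3.41 CPM on day 6 (log2 change 4.99 ± 0.93, adjusted p = 0.000444). Des, the muscle filament desmin, had 32.4, 82.1 and 44.9 CPM on day 10, against 6.70, 10.9 and 8.25 CPM on day 6 (log2 change 2.62 ± 0.46, adjusted p = 0.000278). Neither overlapped between the days. Tagln, a marker shared with fibroblasts, had 63.3, 56.4 and 48.0 CPM on day 10, against 47.5, 58.3 and 22.6 CPM on day 6 and did not pass (adjusted p = 0.753). Myh11, the late smooth muscle myosin, had 0.489, 1.41 and 1.05 CPM on day 10, against 0.225, 0.544 and 0.286 CPM on day 6 (adjusted p = 0.139). In the epicardium and mesothelium list 4 of 10 genes rose and 1 fell. Tcf21, an epicardial factor, had 1.25, 3.84 and 4.12 CPM on day 10, against 0, 0.0725 and 0 CPM on day 6, where 2 counts on day 6 give a ratio of 144 (95% interval 39.4 to 1191). Bnc1, the zinc finger factor basonuclin, had 6.50, 3.61 and 5.67 CPM on day 10, against 0.113, 0.616 and 0.334 CPM on day 6 (log2 change 3.83 ± 0.64, adjusted p = 0.000157). Wt1, the Wilms tumour factor that is a standard epicardial marker, went the other way and fell, with 0.267, 1.06 and 1.602 CPM on day 10, against 8.66, 9.39 and 11.6 CPM on day 6 (log2 change -3.31 ± 0.62, adjusted p = 0.000443). The mesothelial marker Upk3b was at or under 0.289 CPM in every library. Myh11 passed as higher with the replicate block (adjusted p = 0.0479). Krt19 and Actg2 lost their calls without replicate 1 (adjusted p = 0.0697 and 0.109), Mylk, Lmod1 and Actg2 without replicate 2 (adjusted p = 0.154, 0.197 and 0.14), and Actg2 without replicate 3 (adjusted p = 0.104).

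Endothelial genes rose in 13 of 19 cases and fell in 0, with a median of 2.71. Kdr, the VEGF receptor of mesoderm founders and vessels, had 159, 175 and 152 CPM on day 10, against 5.74, 5.91 and 3.46 CPM on day 6 (log2 change 5.01 ± 0.80, adjusted p = 0.000119). Cdh5, the cadherin of endothelial junctions, had 21.4, 91.9 and 40.4 CPM on day 10, against 0.619, 1.05 and 1.46 CPM on day 6 (log2 change 5.58 ± 1.10, adjusted p = 0.000769). Tie1, a receptor of vessel growth, had 15.9, 47.3 and 21.5 CPM on day 10, against 0.113, 0.290 and 0.310 CPM on day 6 (log2 change 6.79 ± 1.07, adjusted p = 9.9e-05). Kdr was even across the day 10 libraries, while Cdh5 and Tie1 were highest in replicate 2. The ETS factors Erg and Fli1 rose by 5.61 ± 1.09 and 4.64 ± 0.83 on the log2 scale, and Emcn, a surface sialomucin with 2 counts in all on day 6, had a ratio of 185 (95% interval 50.7 to 1530.0). Pecam1, the classical marker CD31 that stem cells also express, had 30.7, 30.9 and 18.3 CPM on day 10, against 40.5, 12.7 and 17.7 CPM on day 6 (log2 change 0.17 ± 0.42, adjusted p = 0.851). Etv2, the factor that starts the endothelial and blood programme, had 8.99, 3.06 and 7.83 CPM on day 10, against 3.94, 3.48 and 1.86 CPM on day 6 (log2 change 1.11 ± 0.68, adjusted p = 0.308), with overlapping libraries. Flt1, a VEGF receptor, had 39.0, 93.5 and 78.8 CPM on day 10, against 7.48, 69.9 and 32.5 CPM on day 6 and did not pass (adjusted p = 0.234). Flt1 and Sox7 passed as higher with the replicate block (adjusted p = 0.0157 and 0.00167). Plvap, Egfl7 and Cldn5 lost their calls without replicate 1 (adjusted p = 0.0595, 0.0831 and 0.134), Plvap, Egfl7 and Cldn5 without replicate 2 (adjusted p = 0.169, 0.0813 and 0.14), and Egfl7 and Cldn5 without replicate 3 (adjusted p = 0.0597 and 0.0823).

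Genes of primitive red blood cells, the first blood of the embryo that arises in the yolk sac, rose and were unevenly spread over the day 10 libraries. Of 17 tested genes of the blood list 11 rose and 1 fell, with a median of 2.69, the same with genes that lack a count on a day at their bounds. Hbb-bh1, the embryonic beta-type globin (chr7:103841638-103843162 of mm10, minus strand), had 224, 18.5 and 30.1 CPM on day 10, against 0.0563, 0.254 and 0.191 CPM on day 6 (log2 change 8.96 ± 1.63, adjusted p = 0.000354). Hbb-y, the neighbouring embryonic globin (chr7:103851754-103853207, minus strand), had 16.8, 1.84 and 1.602 CPM on day 10, against 0, 0.0725 and 0 CPM on day 6, with 2 counts in all on day 6 and a ratio of 246 (95% interval 67.7 to 2037). In both genes replicate 1 was by far the highest day 10 library, and every day 10 library lay above day 6. Hba-x, the embryonic alpha-type globin, did not follow that order, with 14.3, 30.8 and 25.4 CPM on day 10, against 0, 0.580 and 0.0954 CPM on day 6 (log2 change 6.64 ± 1.69, adjusted p = 0.00653). It was lowest in replicate 1 on both days. Gata1, the master factor of red cells, had 6.18, 1.49 and 2.34 CPM on day 10, against 0.0563, 0.435 and 0.215 CPM on day 6 (log2 change 3.75 ± 0.84, adjusted p = 0.00248). Tal1, a factor that founds blood, had 50.5, 11.5 and 18.9 CPM on day 10, against 6.47, 1.67 and 4.44 CPM on day 6 (log2 change 2.69 ± 0.60, adjusted p = 0.00249). Lmo2, the adaptor that joins these factors, had 24.2, 10.7 and 13.1 CPM on day 10, against 3.54, 2.39 and 2.08 CPM on day 6 (log2 change 2.59 ± 0.44, adjusted p = 0.000187). Replicate 1 was the highest day 10 library in all 3 regulators. Klf1, a red cell factor, and Runx1, the factor of definitive blood, did not pass (adjusted p = 0.165 and 0.246). Runx1 and Epor passed as higher with the replicate block (adjusted p = 0.0402 and 0.0297). Hbb-y, Hba-x and Gata1 lost their calls without replicate 1 (adjusted p = 0.156, 0.0572 and 0.105), and Hba-x without replicate 3 (adjusted p = 0.065). Myb, a factor of definitive blood that stem cells also express, fell, with 5.92, 10.9 and 9.61 CPM on day 10, against 33.0, 40.3 and 43.7 CPM on day 6 (log2 change -2.14 ± 0.42, adjusted p = 0.000689).

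The adult globin genes Hba-a1, Hba-a2, Hbb-bs and Hbb-bt had no count in any of the 6 libraries, and an absence of counts over a day, if counts are independent, allows up to 0.0349 CPM on day 10 and 0.0344 CPM on day 6. These come as near-identical pairs whose shared reads a counting step can leave out, so their level is uncertain. Ptprc, the pan-leukocyte antigen CD45, had no count on day 10 and 0.0563, 0.0725 and 0.0477 CPM on day 6. The number of blood genes called higher was 5, 10 and 8 without replicate 1, 2 or 3. Without replicate 1, Hbb-bh1 changed by 6.77 (adjusted p = 0.0207). Alas2, Slc4a1 and Gfi1b lost their calls without replicate 1 (adjusted p = 0.458, 0.163 and 0.315), Slc4a1 without replicate 2 (adjusted p = 0.074), and Slc4a1 and Gfi1b without replicate 3 (adjusted p = 0.173 and 0.184). The summed level of the blood list was 422.0, 118.1 and 136.1 CPM on day 10, against 48.4, 59.8 and 64.1 CPM on day 6. The sarcomere list summed to 1294, 3437 and 1455 CPM on day 10, against 498.6, 609.0 and 516.5 CPM on day 6.

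The embryonic globins Hba-x and Hbb-y are shown in the same way, since they were near 0 on day 6 and are switched on together in primitive red cells. Hba-x lies at chr11:32276450-32276599 (plus strand) and Hbb-y at chr7:103853208-103853357 (minus strand), and Hbb-bh1 is named only. The letters searched and the meaning of the capitals are those given for the contractile genes.
Hba-x: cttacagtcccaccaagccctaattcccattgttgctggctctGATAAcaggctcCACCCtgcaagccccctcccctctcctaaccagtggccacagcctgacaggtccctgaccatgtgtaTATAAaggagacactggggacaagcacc
Hbb-y: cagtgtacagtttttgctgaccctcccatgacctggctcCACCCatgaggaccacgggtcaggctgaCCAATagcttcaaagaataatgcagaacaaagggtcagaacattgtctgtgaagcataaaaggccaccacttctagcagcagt
Hba-x holds a GATAA match that begins 107 bases before the start, a CACCC match 95 bases and a TATAA match 28 bases before it. Hbb-y holds a CACCC match 111 bases and a CCAAT match 83 bases before the start. In the 11 windows matched for the blood list GATAA was found in 5 (45.5%) and CACCC in 7 (63.6%), against 8.00% and 41.9% of all windows. Among windows of genes that rose the shares were 10.1% and 50.0%. CCAAT was in 4 of the 11 (36.4%) and TATAA in 1 (9.09%), against 27.6% and 7.51% of all windows.

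**Figure D3:**
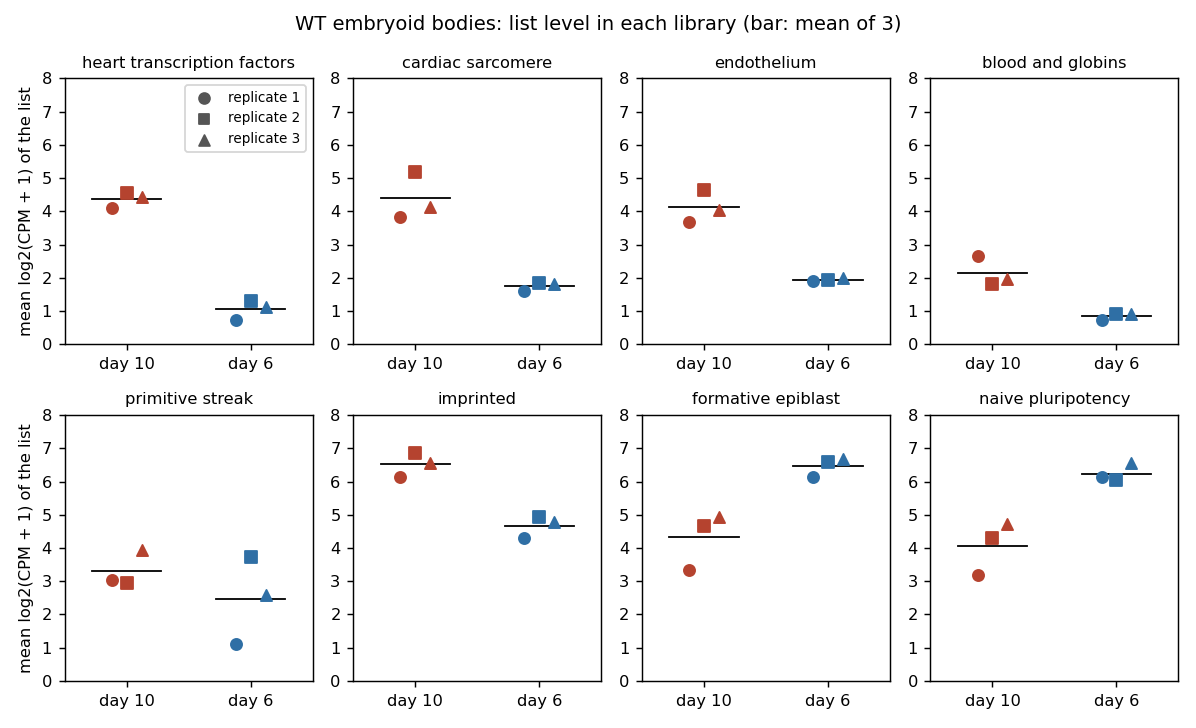
Mean log2(CPM + 1) over the genes of 8 lists (vertical axis) in each library, day 10 left and day 6 right, with symbols for replicates 1, 2 and 3 and a bar for the mean. The day 10 libraries lie above those of day 6 for heart, endothelium, blood and imprinted genes and below them for both pluripotency lists, while the streak list overlaps between the days.

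Endoderm genes were mixed. Of 21 tested genes of yolk sac endoderm 7 rose and 0 fell (10 and 2 with the replicate block), with a median of 2.08 (1.98 with Apoa2 at its bound). Afp, the fetal serum protein, had 8.99, 5.61 and 3.99 CPM on day 10, against 0, 0.0725 and 0.0954 CPM on day 6 (log2 change 6.51 ± 1.27, adjusted p = 0.000627). Ttr, a carrier of thyroid hormone and retinol made in visceral endoderm, had 45.5, 9.96 and 10.5 CPM on day 10, against 0.0563, 0.798 and 1.55 CPM on day 6 (log2 change 4.70 ± 1.29, adjusted p = 0.0113). Apob, a lipoprotein scaffold, had 34.3, 50.8 and 105 CPM on day 10, against 8.95, 5.40 and 11 CPM on day 6 (log2 change 2.91 ± 0.90, adjusted p = 0.0247). Replicate 1 was the highest of day 10 for Afp and Ttr and the lowest for Apob. Rbp4, the retinol carrier, rose by 3.43 ± 0.82 on the log2 scale. Hnf4a, a master factor of visceral endoderm, had 4.98, 4.43 and 9.06 CPM on day 10, against 0.450, 1.31 and 2.84 CPM on day 6 (adjusted p = 0.141). Apoe, a lipid carrier made by many cells, had 465, 393 and 401 CPM on day 10, against 429.6, 328 and 316 CPM on day 6. Alb, the albumin of liver, had no count on either day. Hnf4a, Hhex and S100g passed as higher with the replicate block (adjusted p = 0.0204, 0.0439 and 0.0293). Lrp2 and Trf passed as lower with the replicate block (adjusted p = 0.0222 and 0.0147). Ttr, Apob and Fgb lost their calls without replicate 1 (adjusted p = 0.223, 0.0951 and 0.189), Ttr and Apob without replicate 2 (adjusted p = 0.05 and 0.118), and Apob without replicate 3 (adjusted p = 0.158).

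Of 16 genes of foregut and gut endoderm 4 rose and 1 fell (6 and 3 with the replicate block). Shh, a morphogen of gut and midline, had 11.7, 12.6 and 22.4 CPM on day 10, against 0, 1.12 and 0.906 CPM on day 6 (log2 change 4.45 ± 1.10, adjusted p = 0.00561). Foxa1, a forkhead factor of gut, had 6.23, 19.2 and 20.4 CPM on day 10, against 0.619, 4.64 and 2.43 CPM on day 6 (log2 change 2.56 ± 0.87, adjusted p = 0.0425). Sox17, a factor of definitive endoderm, had 20.2, 21.2 and 36.9 CPM on day 10, against 0.900, 15.4 and 7.11 CPM on day 6 (adjusted p = 0.0939). Foxa2, a factor of endoderm and midline, overlapped between the days, with 25.0, 30.2 and 39.8 CPM on day 10, against 0.506, 33.9 and 9.40 CPM on day 6 (adjusted p = 0.496). Epcam, an adhesion molecule of stem cells and epithelia, fell (log2 change -1.18 ± 0.33, adjusted p = 0.0145). Sox17 and Prox1 passed as higher with the replicate block (adjusted p = 0.0268 and 0.0127). Cdh1 and Trh passed as lower with the replicate block (adjusted p = 0.000614 and 0.0205). Shh, Foxa1 and Epcam lost their calls without replicate 1 (adjusted p = 0.0521, 0.157 and 0.0958), Foxa1 and Epcam without replicate 2 (adjusted p = 0.076 and 0.0882), and Shh, Foxa1 and Epcam without replicate 3 (adjusted p = 0.054, 0.229 and 0.0801). Without replicate 1, 2 or 3 the number of gut genes called higher was 0, 4 and 0 and the number called lower 0, 0 and 0.

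Parietal endoderm makes basement membrane in bulk. In the list of genes of both, 3 of 10 rose, namely Plat, Thbd and Nid1, and 8 did with the replicate block. The laminin and collagen IV genes of the list did not pass without the block. Thbd, thrombomodulin and a marker of parietal endoderm, had 10.8, 6.04 and 6.51 CPM on day 10, against 0.956, 0.508 and 0.716 CPM on day 6 (log2 change 3.43 ± 0.55, adjusted p = 0.000119). Plat, a plasminogen activator, had 79.6, 25.7 and 32.1 CPM on day 10, against 3.26, 3.23 and 3.55 CPM on day 6 (log2 change 3.77 ± 0.59, adjusted p = 9.9e-05). The collagen IV chain Col4a1 had 331, 549.7 and 627 CPM on day 10, against 58.2, 136 and 203 CPM on day 6 (adjusted p = 0.0938). All day 10 libraries lay above those of day 6 for these genes. Col4a1, Col4a2, Sparc, Lama1 and Lamb1 passed as higher with the replicate block (adjusted p = 0.0123, 0.00463, 0.0018, 0.00988 and 0.0345). Nid1 lost its call without replicate 1 (adjusted p = 0.074), Nid1 without replicate 2 (adjusted p = 0.384), and Nid1 without replicate 3 (adjusted p = 0.0612).

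Few neural genes passed the test. Of 22 neural progenitor genes 3 rose and 0 fell (7 and 1 with the replicate block), and 0, 1 and 1 were higher without replicate 1, 2 or 3. The share that rose was 13.6%, against 9.07% of all genes tested, and the median log2 change of the list was 1.54. Sox1, the earliest factor of the neural plate, had 2.09, 11.1 and 7.14 CPM on day 10, against 4.56, 6.60 and 12.5 CPM on day 6 (log2 change -0.22 ± 1.06, adjusted p = 0.932). Pax6, a factor of radial glia and eye, had 2.49, 11.2 and 3.23 CPM on day 10, against 5.46, 4.24 and 4.72 CPM on day 6 (log2 change 0.23 ± 0.64, adjusted p = 0.87). Both overlapped between the days. Lhx2, a factor of the forebrain, had 1.51, 9.65 and 3.65 CPM on day 10, against 0.506, 0.761 and 1.00 CPM on day 6 (log2 change 2.68 ± 0.85, adjusted p = 0.0288). It rose, while Six3, another forebrain factor, had 0.311, 17.5 and 5.57 CPM on day 10, against 0.169, 1.52 and 0.668 CPM on day 6 and did not pass (adjusted p = 0.0959). Replicate 2 was the highest day 10 library in both. Of 18 neuron genes 2 rose (11.1%) and 3 fell (16.7%, against 7.12% of all genes tested), with a median of -0.94. Tubb3, neuronal tubulin, had 23.1, 15.4 and 13.2 CPM on day 10, against 53.8, 34.7 and 31.5 CPM on day 6 (log2 change -1.22 ± 0.60, adjusted p = 0.18). Elavl3, an RNA-binding protein of neurons, had 0.222, 4.00 and 2.47 CPM on day 10, against 6.81, 12.8 and 12.6 CPM on day 6 (log2 change -2.26 ± 0.78, adjusted p = 0.0449). Ina, a neuronal filament protein, fell by 2.92 on the log2 scale. Lhx2, Elavl3, Neurod1, Gap43, Gad2 and Pax3 lost their calls without replicate 1 (adjusted p = 0.0953, 0.188, 0.085, 0.128, 0.184 and 0.0667), Lhx2, Elavl3 and Gap43 without replicate 2 (adjusted p = 0.317, 0.0755 and 0.131), and Lhx2, Elavl3, Gap43 and Gad2 without replicate 3 (adjusted p = 0.0783, 0.18, 0.0713 and 0.16). In the neural crest list 4 of 10 genes rose and 1 fell. Sox10, its defining factor, had 0.222, 0.588 and 0.473 CPM on day 10, against 0.225, 1.02 and 0.429 CPM on day 6, with overlap. Tfap2a, a factor of crest and ectoderm, had 0.178, 6.31 and 4.23 CPM on day 10, against 0.619, 2.57 and 3.03 CPM on day 6, with overlap too. The genes that rose were Ets1, Twist1, Snai2 and Pax3, all of them also genes of mesoderm, and the one that fell was Foxd3, also a gene of stem cells.

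Keratins of simple epithelia rose. In the surface epithelium list 7 of 13 tested genes rose and 2 fell, with a median of 2.34. Krt8, a keratin of simple epithelia, had 578, 307 and 332 CPM on day 10, against 25.1, 105 and 65.4 CPM on day 6 (log2 change 2.64 ± 0.58, adjusted p = 0.00235). Krt18, its partner, had 523, 264 and 251 CPM on day 10, against 44.1, 91.9 and 68.6 CPM on day 6 (log2 change 2.34 ± 0.57, adjusted p = 0.00464). Replicate 1 was the highest day 10 library and the lowest day 6 library for both. Trp63, the factor of stratified epithelium, had 0.0445, 2.86 and 0.236 CPM on day 10, against 0, 0.0725 and 0.0477 CPM on day 6 (log2 change 4.46 ± 1.55, adjusted p = 0.0427), with nearly all of its RNA in replicate 2. Grhl2 and Esrp1, epithelial regulators, fell by 1.90 and 1.24 on the log2 scale. Trp63 did not pass with the replicate block (adjusted p = 0.0956). Krt8, Krt18, Trp63, Esrp1, Krt19, Krt7 and Gata3 lost their calls without replicate 1 (adjusted p = 0.0867, 0.147, 0.115, 0.154, 0.0697, 0.0799 and 0.0692), Trp63, Esrp1, Krt7 and Gata3 without replicate 2 (adjusted p = 0.562, 0.0695, 0.0703 and 0.0601), and Trp63, Esrp1, Krt7 and Gata3 without replicate 3 (adjusted p = 0.113, 0.0669, 0.135 and 0.11). In the trophoblast list 4 of 9 tested genes rose, namely Hand1, Cdx2, Krt7 and Gata3, which mesoderm or epithelia also express. The placental genes Tpbpa and Prl3d1 had 0 counts and 1 count in the 6 libraries.

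Genes of mesenchyme and matrix rose. Of 8 genes of the epithelial to mesenchymal transition 6 rose and 0 fell (7 and 1 with the replicate block), and of 18 matrix genes 8 did (13 with the replicate block). Vim, the filament vimentin, had 439.7, 677 and 530.2 CPM on day 10, against 82.3, 159.6 and 118 CPM on day 6 (log2 change 2.19 ± 0.45, adjusted p = 0.00111). Twist1, a mesenchymal factor, had 42.6, 33.7 and 35.7 CPM on day 10, against 4.22, 8.99 and 4.17 CPM on day 6 (log2 change 2.69 ± 0.43, adjusted p = 0.000117). Neither overlapped between the days. Cdh2, the mesenchymal cadherin, rose, with 106, 154 and 144 CPM on day 10, against 22.6, 87.5 and 31.9 CPM on day 6 (log2 change 1.51 ± 0.46, adjusted p = 0.0244). Cdh1, the epithelial cadherin, had 99.1, 311 and 299 CPM on day 10, against 286, 756 and 534 CPM on day 6 (adjusted p = 0.0649). Snai1 passed as higher with the replicate block (adjusted p = 0.0409). Cdh1 passed as lower with the replicate block (adjusted p = 0.000614). Cdh2 lost its call without replicate 1 (adjusted p = 0.166), and Cdh2 without replicate 3 (adjusted p = 0.198).

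Among matrix genes the fibrillins, scaffolds of elastic fibres, rose. Fbn1 had 223, 209 and 138 CPM on day 10, against 22.7, 24.5 and 20.4 CPM on day 6 (log2 change 3.08 ± 0.46, adjusted p = 6.55e-05). Fbn2 had 207, 418 and 267 CPM on day 10, against 7.202, 17.2 and 17.4 CPM on day 6 (log2 change 4.41 ± 0.72, adjusted p = 0.000136). The days lay far apart for both. Col3a1, a fibrillar collagen, had 23.6, 78.1 and 27.9 CPM on day 10, against 1.24, 1.45 and 5.37 CPM on day 6 (log2 change 3.97 ± 1.18, adjusted p = 0.02). Col1a1, a chain of collagen I, had 10.9, 73.7 and 74.8 CPM on day 10, against 0.788, 5.95 and 18.2 CPM on day 6 (adjusted p = 0.199). The partner chain Col1a2 had 38.3, 36.6 and 34.01 CPM on day 10, against 3.60, 6.82 and 12.6 CPM on day 6, higher in all day 10 libraries without passing (adjusted p = 0.0733). Cartilage genes rose in 7 of 10 cases and fell in 1. Sox9, the cartilage master factor, had 10.1, 47.7 and 57.9 CPM on day 10, against 0.338, 4.02 and 1.88 CPM on day 6 (log2 change 4.19 ± 1.06, adjusted p = 0.00661). Col2a1, cartilage collagen, had 66.6, 208 and 97.8 CPM on day 10, against 8.05, 23.9 and 18.2 CPM on day 6 (log2 change 2.89 ± 0.78, adjusted p = 0.0107). Acan, the aggrecan gene and the one that fell, had 1.11, 2.43 and 1.84 CPM on day 10, against 13.1, 4.57 and 5.30 CPM on day 6 (log2 change -2.08 ± 0.42, adjusted p = 0.000921). Without replicate 1, 2 or 3 the list had 4, 4 and 4 higher genes. Col1a1, Col1a2, Fn1, Tnc and Col6a1 passed as higher with the replicate block (adjusted p = 0.00966, 0.00927, 0.021, 0.0245 and 0.0478). Col3a1, Col2a1, Acan and Postn lost their calls without replicate 1 (adjusted p = 0.118, 0.0728, 0.102 and 0.111), Col3a1 and Col2a1 without replicate 2 (adjusted p = 0.203 and 0.078), and Sox9 and Col2a1 without replicate 3 (adjusted p = 0.0803 and 0.0527).

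Of the markers set for feeder fibroblasts, Mmp3, Ccl7 and S100a4 were under 1 CPM in every day 10 library, while Thy1 reached 4.12 CPM. Only Mmp3 among them was called lower. Mmp3, a matrix protease, had 0, 0.314 and 0.368 CPM on day 10, against 5.85, 0.544 and 2.22 CPM on day 6 (log2 change -3.51 ± 0.87, adjusted p = 0.00543). The chemokine gene Ccl7 had 0.0445, 0 and 0.0525 CPM on day 10, against 0.450, 0 and 0 CPM on day 6. S100a4, a calcium-binding protein, had 0.400, 0.471 and 0 CPM on day 10, against 0.225, 0.0725 and 0.286 CPM on day 6. Thy1, a surface protein, had 0.445, 4.12 and 2.84 CPM on day 10, against 2.08, 6.31 and 5.46 CPM on day 6 and did not pass (adjusted p = 0.418), replicate 1 being the lowest of each day. Of the 20 genes of the feeder list 3 rose and 2 fell (3 and 4 with the replicate block), or 15% and 10%, against 9.07% and 7.12% of all genes tested. The higher ones were Has2, Prrx1 and Cd34, which mesoderm also expresses, and the lower ones Mmp3 and Cxcl5. Cxcl5 had no count on day 10 and 0.394, 0 and 0.143 CPM on day 6. The whole list summed to 152.4 to 247.6 CPM on day 10 and 60.1 to 73.1 CPM on day 6, to which Has2 alone gave 201, 96.8 and 96.2 CPM on day 10 and 25.1, 23.4 and 15.2 CPM on day 6. Mmp3 and Cxcl5 lost their calls without replicate 1 (adjusted p = 0.206 and 0.232), Cd34 without replicate 2 (adjusted p = 0.504), and Cd34 and Cxcl5 without replicate 3 (adjusted p = 0.12 and 0.136).

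Hox genes, which give cells a position along the head to tail axis, rose mainly in the anterior groups. Of the 15 Hox genes of groups 1 to 5 tested 11 rose, with a median of 3.94 (3.50 with Hoxc5 at its bound), and of the 24 of groups 6 to 13 3 rose and 0 fell, with a median of 0.63 (1.21 with the genes that lack a count on a day at their bounds). Hoxb1, one of the first to be turned on, had 2.40, 2.75 and 16.1 CPM on day 10, against 0.169, 0.435 and 0.716 CPM on day 6 (log2 change 3.94 ± 1.10, adjusted p = 0.0128). Hoxb2 had 14.2, 2.47 and 8.09 CPM on day 10, against 0, 0.145 and 0.0954 CPM on day 6 (log2 change 6.49 ± 1.141, adjusted p = 0.000251). Hoxb4 had 5.74, 2.67 and 4.15 CPM on day 10, against 0.169, 0.145 and 0.239 CPM on day 6 (log2 change 4.45 ± 0.68, adjusted p = 7.04e-05). Replicate 2 was the lowest day 10 library for Hoxb2 and Hoxb4, and replicate 3 the highest for Hoxb1. The posterior gene Hoxa9 had 0.178, 0 and 0.263 CPM on day 10, against 0.0563, 0 and 0.119 CPM on day 6, with overlap. Hoxb9 had 0.445, 0 and 1.05 CPM on day 10, against 0.281, 0.363 and 0.787 CPM on day 6, with overlap too. The 3 genes of groups 6 to 13 that rose were Hoxd8, Hoxd9 and Hoxb6, at 0.0784 to 3.89 CPM on day 10. The numbers called higher without replicate 1, 2 or 3 were 6, 9 and 6 for groups 1 to 5 and 0, 3 and 1 for groups 6 to 13. Hoxc5, Hoxb1, Hoxd8, Hoxd9 and Hoxb6 lost their calls without replicate 1 (adjusted p = 0.0835, 0.0695, 0.139, 0.0596 and 0.22), Hoxc5 without replicate 2 (adjusted p = 0.11), and Hoxc5, Hoxb1, Hoxd9 and Hoxb6 without replicate 3 (adjusted p = 0.298, 0.163, 0.0596 and 0.32).

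Genes of retinoic acid, the vitamin A derivative that turns on anterior Hox genes, rose in 8 of 12 cases. Aldh1a2, the enzyme that makes retinoic acid in mesoderm, had 36.7, 3.80 and 35.8 CPM on day 10, against 0.675, 0.363 and 0.501 CPM on day 6 (log2 change 5.65 ± 0.91, adjusted p = 0.000124), with replicate 2 the lowest of day 10. Rarb, a receptor and direct target, had 24.1, 26.8 and 14.9 CPM on day 10, against 1.13, 1.595 and 2.003 CPM on day 6 (log2 change 3.78 ± 0.59, adjusted p = 9.4e-05). Meis1, a Hox cofactor, had 50.3, 38.1 and 39.6 CPM on day 10, against 0.506, 1.89 and 1.503 CPM on day 6 (log2 change 5.00 ± 0.86, adjusted p = 0.000223). Neither overlapped between the days. Crabp1, a binding protein, rose by 2.72 ± 0.48 on the log2 scale. Cyp26a1, the enzyme that breaks retinoic acid down, had 87.8, 32.6 and 54.7 CPM on day 10, against 1.35, 24.3 and 13.9 CPM on day 6 (log2 change 2.14 ± 0.99, adjusted p = 0.152), with no overlap but a wide spread on day 6. Cyp26b1 passed as higher with the replicate block (adjusted p = 0.0112). Stra6 lost its call without replicate 1 (adjusted p = 0.139), and Stra6 without replicate 3 (adjusted p = 0.126).

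BMP and WNT are secreted signals that pattern mesoderm. In the BMP list 10 of 18 genes rose and 0 fell (13 and 1 with the replicate block), with a median of 2.62. Bmp4, the ligand that drives ventral mesoderm, had 51.3, 36.1 and 38.7 CPM on day 10, against 4.33, 4.06 and 4.25 CPM on day 6 (log2 change 3.32 ± 0.40, adjusted p = 1.1e-05). Bmp2, a close relative, had 26.9, 26.9 and 41.2 CPM on day 10, against 0.450, 6.78 and 5.30 CPM on day 6 (log2 change 2.91 ± 0.65, adjusted p = 0.00266). Bmp5, a further ligand, had 58.1, 25.3 and 22.3 CPM on day 10, against 0, 0.435 and 0.334 CPM on day 6 (log2 change 6.96 ± 1.02, adjusted p = 5.17e-05). Every day 10 library lay above every day 6 library in the 3 ligands. Id3, a direct target, had 159, 71.3 and 78.9 CPM on day 10, against 15.0, 24.1 and 21.9 CPM on day 6 (log2 change 2.34 ± 0.47, adjusted p = 0.000961). Smad6, a target that inhibits the pathway, had 49.6, 22.3 and 33.2 CPM on day 10, against 2.53, 5.91 and 5.58 CPM on day 6 (log2 change 2.90 ± 0.55, adjusted p = 0.000518). Id1, another target, had 84.9, 72.4 and 65.1 CPM on day 10, against 14.3, 26.3 and 26.8 CPM on day 6 (adjusted p = 0.0559). The antagonist Nog rose too, and it was highest in replicate 3, with 5.47, 3.88 and 11.7 CPM on day 10, against 0.113, 0.435 and 0.835 CPM on day 6 (log2 change 3.84 ± 0.98, adjusted p = 0.00685). Id1, Msx1 and Smad1 passed as higher with the replicate block (adjusted p = 0.00767, 0.0182 and 0.0458). Smad7 passed as lower with the replicate block (adjusted p = 0.00201). Id3 and Nog lost their calls without replicate 1 (adjusted p = 0.063 and 0.0692).

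In the WNT list 5 of 19 genes rose and 0 fell (9 and 1 with the replicate block), with a median of 1.37. Wnt2, a ligand of early heart and vessels, had 36.7, 10.9 and 12.1 CPM on day 10, against 0.169, 0.181 and 0.0954 CPM on day 6 (log2 change 7.09 ± 0.89, adjusted p = 1.35e-05). Wnt5a, a ligand of elongating mesoderm, had 37.7, 31.7 and 52.5 CPM on day 10, against 3.66, 4.46 and 4.51 CPM on day 6 (log2 change 3.27 ± 0.54, adjusted p = 0.00016). Dkk1, a secreted inhibitor, had 49.2, 21.0 and 37.0 CPM on day 10, against 0.394, 8.19 and 3.24 CPM on day 6 (log2 change 3.16 ± 0.80, adjusted p = 0.00657). None of the 3 overlapped between the days. The standard target Axin2 had 38.4, 44.1 and 84.4 CPM on day 10, against 17.8, 67.3 and 31.0 CPM on day 6 (adjusted p = 0.492). Sp5, a target of the streak, had 6.98, 12.8 and 52.7 CPM on day 10, against 0.563, 30.3 and 6.99 CPM on day 6 (adjusted p = 0.621). Both overlapped, with replicate 2 the highest of day 6, the order already seen for T and Eomes. Nkd1, Sfrp1, Lgr5 and Wnt11 passed as higher with the replicate block (adjusted p = 0.00277, 0.0175, 0.0264 and 0.0383). Sfrp2 passed as lower with the replicate block (adjusted p = 0.0181). Dkk1, Rspo3 and Sfrp5 lost their calls without replicate 1 (adjusted p = 0.11, 0.126 and 0.0837), and Dkk1 and Rspo3 without replicate 3 (adjusted p = 0.0641 and 0.0707).

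The CBX genes of PRC1 moved in both directions. Of 20 PRC1 genes 4 rose and 5 fell, with a median of 0.16. Cbx7 (chr15:79915807-79932646 of mm10, minus strand), the main CBX gene of stem cells, fell, with 7.56, 34.8 and 35.0 CPM on day 10, against 78.7, 111 and 119 CPM on day 6 (log2 change -1.996 ± 0.55, adjusted p = 0.0113). Cbx6 fell too, with 17.9, 32.7 and 35.7 CPM on day 10, against 60.3, 66.5 and 75.2 CPM on day 6 (log2 change -1.23 ± 0.31, adjusted p = 0.00592). In both genes replicate 1 was the lowest library of each day. Cbx8 rose, with 8.67, 3.14 and 2.97 CPM on day 10, against 1.13, 0.943 and 0.692 CPM on day 6 (log2 change 2.43 ± 0.46, adjusted p = 0.000529). No library of day 10 overlapped with one of day 6 in any of these genes. Cbx2, the paralog that compacts chromatin through its own domain, had 82.7, 87.6 and 79.8 CPM on day 10, against 42.3, 58.6 and 52.7 CPM on day 6, higher in all day 10 libraries without passing the test (log2 change 0.70 ± 0.42, adjusted p = 0.283). Per kilobase of the deposited gene length, the mean level of Cbx2 was 22.2 CPM on day 10 and 13.6 CPM on day 6. That of Cbx7 was 8.91 CPM on day 10 and 35.6 CPM on day 6, so that Cbx2 stood above Cbx7 on day 10 and below it on day 6. Phc1, a polyhomeotic subunit, fell, with 43.7, 193 and 178 CPM on day 10, against 465, 627 and 612 CPM on day 6 (log2 change -2.04 ± 0.44, adjusted p = 0.00198). Its relative Phc2 had 62.1, 107 and 109.8 CPM on day 10, against 25.8, 56.5 and 43.0 CPM on day 6 (adjusted p = 0.058). Bmi1, the PCGF4 subunit, rose, with 34.4, 18.4 and 21.6 CPM on day 10, against 11.4, 8.85 and 9.76 CPM on day 6 (log2 change 1.31 ± 0.33, adjusted p = 0.00655). Rnf2, the ubiquitin ligase RING1B, had 157, 88.5 and 113 CPM on day 10, against 146, 92.4 and 95.4 CPM on day 6 (adjusted p = 0.93). Without replicate 1, 2 or 3, 1, 4 and 3 PRC1 genes were called higher and 1, 4 and 3 lower. Phc2 passed as higher with the replicate block (adjusted p = 0.00146). Kdm2b passed as lower with the replicate block (adjusted p = 0.000599). Cbx7, Cbx6, Bmi1, L3mbtl2, Yaf2 and Pcgf6 lost their calls without replicate 1 (adjusted p = 0.0895, 0.0775, 0.109, 0.0636, 0.249 and 0.157), Pcgf6 without replicate 2 (adjusted p = 0.231), and L3mbtl2, Yaf2 and Pcgf6 without replicate 3 (adjusted p = 0.0582, 0.136 and 0.111).

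Of 12 PRC2 genes 3 fell (Jarid2, Phf19 and Mtf2) and 0 rose, and 6 fell with the replicate block. Jarid2, an accessory subunit, had 147, 253 and 227 CPM on day 10, against 466, 355 and 423 CPM on day 6 (log2 change -0.99 ± 0.24, adjusted p = 0.00499). Ezh2, the catalytic subunit of dividing cells, had 91.3, 96.9 and 107 CPM on day 10, against 125, 118 and 142 CPM on day 6 (adjusted p = 0.58). Ezh1, its counterpart in resting cells, had 35.6, 45.0 and 37.8 CPM on day 10, against 27.6, 30.2 and 36.5 CPM on day 6 (adjusted p = 0.512). Neither passed, although Ezh2 was lower in all day 10 libraries. The core subunit Suz12 had 184, 85.2 and 134 CPM on day 10, against 360.1, 148 and 215 CPM on day 6 (adjusted p = 0.0685). Suz12, Eed and Epop passed as lower with the replicate block (adjusted p = 0.0237, 0.0279 and 0.013). Jarid2, Phf19 and Mtf2 lost their calls without replicate 1 (adjusted p = 0.149, 0.225 and 0.293), Phf19 and Mtf2 without replicate 2 (adjusted p = 0.0506 and 0.0923), and Phf19 and Mtf2 without replicate 3 (adjusted p = 0.155 and 0.114). The number of PRC2 genes called lower was 0, 1 and 1 without replicate 1, 2 or 3.

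**Figure D4:**
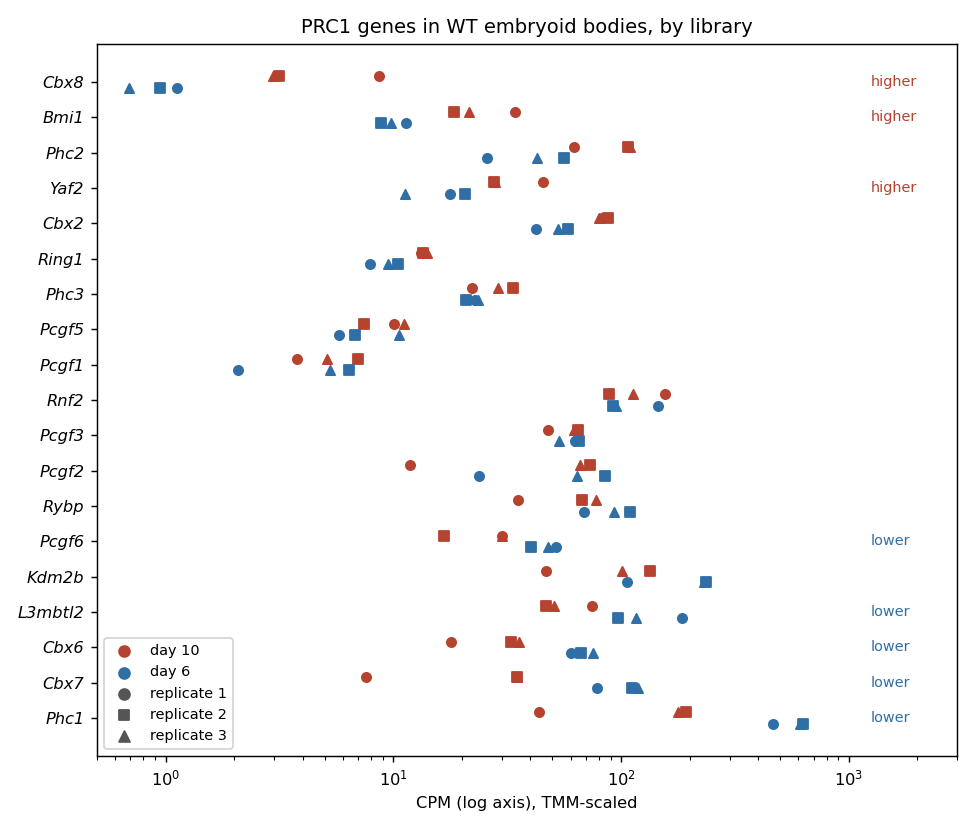
CPM of genes of the PRC1 list (log axis) in each library, day 10 in red above day 6 in blue, with symbols for replicates 1, 2 and 3; the word at the right marks genes higher or lower on day 10 at an adjusted p below 0.05. Cbx8 and Bmi1 lie higher on day 10 and Cbx6, Cbx7 and Phc1 lower, while Cbx2 is higher in all day 10 libraries without passing.

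Of 21 cell cycle genes 5 fell and 0 rose (10 and 1 with the replicate block, and 1 lower in each fit that left out a replicate number), with a median of -0.47. Ccne1, cyclin E, had 23.2, 27.8 and 28.3 CPM on day 10, against 119.8, 83.9 and 96.3 CPM on day 6 (log2 change -1.92 ± 0.28, adjusted p = 6.08e-05). Ccnd1, cyclin D1, had 78.4, 79.7 and 85.8 CPM on day 10, against 142, 148 and 173 CPM on day 6 (log2 change -0.92 ± 0.24, adjusted p = 0.00704). Neither overlapped between the days. Mki67, the proliferation marker, had 367, 590.0 and 503 CPM on day 10, against 508, 663 and 539 CPM on day 6 (log2 change -0.23 ± 0.34, adjusted p = 0.737). Ccnd2, cyclin D2, had 163, 336 and 339 CPM on day 10, against 56.8, 80.7 and 129 CPM on day 6 (adjusted p = 0.0898). Among 10 CDK inhibitors and p53 targets, Cdkn1c, the imprinted inhibitor p57, was the one that rose, with 275, 196 and 97.5 CPM on day 10, against 26.7, 20.4 and 17.9 CPM on day 6 (log2 change 3.13 ± 0.67, adjusted p = 0.00164). Cdkn1a, the inhibitor p21, had 14.9, 49.2 and 59.7 CPM on day 10, against 29.5, 45.0 and 50.9 CPM on day 6, with overlap. Cdkn2a, the locus of p16 and ARF and a classical Polycomb target, had 3.60, 3.29 and 3.89 CPM on day 10, against 3.83, 3.08 and 4.67 CPM on day 6, with overlap too. The immediate early genes, which handling of cells can turn on, rose in 2 of 15 cases (Egr2 and Jun) and fell in 0 (4 and 1 with the replicate block). The share that rose was 13.3%, against 9.07% of all genes tested. In the hypoxia list 8.33% rose and 8.33% fell, against 9.07% and 7.12% of all genes tested. Fos had 3.83, 9.33 and 15.2 CPM on day 10, against 1.01, 2.57 and 4.58 CPM on day 6 (adjusted p = 0.0783). In the hypoxia list of 12 genes Vegfa, the vessel growth factor, rose, with 89.5, 140.2 and 95.7 CPM on day 10, against 29.3, 45.4 and 51.6 CPM on day 6 (log2 change 1.36 ± 0.38, adjusted p = 0.0133). Pdk1, a kinase that slows pyruvate use, fell, with 101, 105 and 91.9 CPM on day 10, against 338, 166 and 254 CPM on day 6 (log2 change -1.35 ± 0.34, adjusted p = 0.00689). Slc2a1, the glucose carrier, had 834, 965 and 746 CPM on day 10, against 464, 741 and 811 CPM on day 6 (adjusted p = 0.656). Ccnd2, Fos and Fosb passed as higher with the replicate block (adjusted p = 0.0151, 0.0276 and 0.021). Dusp1 passed as lower with the replicate block (adjusted p = 0.0104). Ccnd1, Jun, Vegfa and Pdk1 lost their calls without replicate 1 (adjusted p = 0.0527, 0.0723, 0.108 and 0.125), Ccnd1 and Vegfa without replicate 2 (adjusted p = 0.0527 and 0.109), and Ccnd1, Jun and Pdk1 without replicate 3 (adjusted p = 0.067, 0.104 and 0.0654).

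Imprinted genes, expressed from 1 parental allele and many of them fetal growth regulators, rose in 15 of 23 cases and fell in 0, with a median of 1.55. Igf2, the fetal growth factor (chr7:142650768-142666816 of mm10, minus strand), had 1157, 3197 and 1884 CPM on day 10, against 4.67, 47.0 and 40.2 CPM on day 6 (log2 change 6.08 ± 1.27, adjusted p = 0.00137). H19, the noncoding RNA beside it, had 71.7, 139.9 and 89.3 CPM on day 10, against 0.394, 3.34 and 5.10 CPM on day 6 (log2 change 5.05 ± 1.28, adjusted p = 0.00645). The days did not overlap in either. Dlk1, a Notch-like fetal protein, had 14.2, 155 and 81.0 CPM on day 10, against 1.18, 4.24 and 4.22 CPM on day 6 (log2 change 4.67 ± 1.15, adjusted p = 0.00529). Meg3, the noncoding RNA of the same domain, had 51.3, 466 and 304 CPM on day 10, against 123, 355 and 287 CPM on day 6 (log2 change 0.10 ± 0.58, adjusted p = 0.945). Igf2 and Dlk1 were lowest in replicate 1 and highest in replicate 2 on day 10, with no overlap between the days, and Meg3 overlapped. Igf2r, the receptor that clears IGF2, had 976, 1087 and 654 CPM on day 10, against 169, 199.6 and 170.0 CPM on day 6 (log2 change 2.33 ± 0.29, adjusted p = 1.1e-05). Peg3, a paternally expressed zinc finger gene, had 777, 976 and 799.7 CPM on day 10, against 77.5, 199 and 145 CPM on day 6 (log2 change 2.596 ± 0.39, adjusted p = 7.04e-05). Neither overlapped between the days. Airn, the antisense RNA of Igf2r, rose as well (log2 change 4.76 ± 0.94, adjusted p = 0.000762), but the sources used here do not say whether counting used the strand, so reads of Airn and Igf2r may not be told apart. Counts per gene do not tell the parental alleles apart either. The number of higher genes was 8, 9 and 10 without replicate 1, 2 or 3. H19, Ndn, Slc38a4, Plagl1, Grb10, Peg10 and Nnat lost their calls without replicate 1 (adjusted p = 0.063, 0.0728, 0.109, 0.0965, 0.225, 0.13 and 0.192), H19, Dlk1, Plagl1, Grb10, Peg10 and Nnat without replicate 2 (adjusted p = 0.0539, 0.0598, 0.085, 0.128, 0.113 and 0.151), and Slc38a4, Plagl1, Grb10, Peg10 and Nnat without replicate 3 (adjusted p = 0.0591, 0.112, 0.125, 0.236 and 0.189).

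Among the genes ranked highest by fold change with no overlap between the days were Hbb-bh1, Foxf1, Hspb7, Hbb-y, Rubie, Tnni1, Hand2, Tnnt2, Tdo2, AV026068 and Myl4. Foxf1, a forkhead factor of lateral mesoderm (chr8:121084386-121088154, plus strand), had 48.5, 12.04 and 36.3 CPM on day 10, against 0.113, 0.145 and 0.0954 CPM on day 6 (log2 change 8.08 ± 1.13, adjusted p = 3.05e-05). Hspb7, a heat shock protein of heart muscle, had 1.25, 14.1 and 6.01 CPM on day 10, against 0, 0.0725 and 0 CPM on day 6, with 2 counts on day 6 and a ratio of 312 (95% interval 86.1 to 2585). Tdo2, the enzyme that breaks down tryptophan, had 13.4, 0.784 and 1.29 CPM on day 10, against 0, 0 and 0.0477 CPM on day 6 and a ratio of 188 (95% interval 51.6 to 1555). For Tdo2 replicate 1 held most of the RNA of day 10, as for Hbb-bh1 and Hbb-y but not Hba-x. Hspb7 was highest in replicate 2, as for the sarcomere genes named above. A noncoding gene of the set lies beside a heart factor. AV026068 (chr8:57304261-57320859, minus strand) runs away from the start of Hand2 (chr8:57320983-57324517, plus strand) and had 10.5, 5.73 and 4.94 CPM on day 10, against 0, 0 and 0.0716 CPM on day 6, a ratio of 193 (95% interval 65.7 to 939). Reads of both genes lie close together, and the strand setting of the counting is not given in the sources used here. Rubie (chr14:46568331-46575851, minus strand), another noncoding gene, had 13.4, 2.24 and 3.13 CPM on day 10, against 0, 0 and 0.0477 CPM on day 6, a ratio of 242 (95% interval 66.6 to 2003). Hbb-y lost its call without replicate 1 (adjusted p = 0.156).

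The lowest by the same rule were Kirrel2, Nphs1, Dppa2, Syt4, Platr10, Pla2g10, Nr0b1, Ooep, Platr7, Capn3, Epp13 and Zfp936. Nphs1, which encodes the kidney slit protein nephrin (chr7:30460058-30488609), had 0.489, 2.27 and 1.16 CPM on day 10, against 76.0, 16.2 and 50.7 CPM on day 6 (log2 change -5.18 ± 0.95, adjusted p = 0.000382). Kirrel2, its neighbour (chr7:30447766-30457515) that encodes a related adhesion protein, had 0.356, 0.392 and 0.420 CPM on day 10, against 22.3, 6.74 and 16.6 CPM on day 6 (log2 change -5.27 ± 1.20, adjusted p = 0.00285). In both genes replicate 1 was the highest and replicate 2 the lowest day 6 library, and no day 10 library was above 2.27 CPM. In the WT stem cells of day 0 Nphs1 averaged 72.2 ± 24.0 CPM and Kirrel2 25.4 ± 6.49 CPM (SD, n = 3 each). Platr10, a noncoding RNA associated with pluripotency, had 2.89, 5.26 and 4.78 CPM on day 10, against 107, 56.2 and 68.1 CPM on day 6 (log2 change -4.16 ± 0.63, adjusted p = 7.04e-05). Ooep, an oocyte and embryo protein, had 0.578, 1.02 and 1.47 CPM on day 10, against 30.2, 4.68 and 15.8 CPM on day 6 (log2 change -4.02 ± 0.76, adjusted p = 0.000554). All day 10 libraries lay below day 6 for the 12 genes, which the rule required. Kirrel2, Nr0b1, Platr7 and Capn3 lost their calls without replicate 1 (adjusted p = 0.0502, 0.0695, 0.119 and 0.0723).

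The late step of WT embryoid bodies was set against the same step in the lines with CBX7-CaPS, CBX7-mCaPS and without CBX7, as the difference between the WT change and that of the other line. Gene-level Cbx7 counts do not check the last label: the libraries labelled KO had 53.6 ± 33.6 CPM on day 10 and 106 ± 13.9 CPM on day 6, against 25.8 ± 15.8 and 103 ± 21.3 CPM in WT (SD, n = 3 each). For CaPS 0 of 17791 genes passed with edgeR (842 at an unadjusted p below 0.05, and 5 with DESeq2), for mCaPS 0 (393 unadjusted, and 0 with DESeq2), and for KO 1 passed, which is 0.00562% of genes (442 unadjusted, and 5 with DESeq2). The 5 of DESeq2 for CaPS were Myl4, Mef2c, Tie1, Apoo and Tmem50b, which were picked out after their values were seen. In CaPS Hand2 had 16.6, 36.9 and 24.2 CPM on day 10, against 0.0405, 0.612 and 15.0 CPM on day 6. Replicate 3 of CaPS stood far above the other libraries of day 6 there, and it did so too for Tnnt2, Myl4, Mef2c and Tie1. This day 6 library had 10.6 M counts, with 62.9% of its counts on Rn45s. In replicate 3 of CaPS Tnnt2 and Myl4 had 6.10 and 3.40 CPM on day 10, below 38.8 and 34.75 CPM on day 6. Hand2, Mef2c and Tie1 were higher on day 10 than on day 6 in that replicate. For Hand2 the differences were WT minus CaPS 5.24 ± 1.39, adjusted p = 0.599, WT minus mCaPS -0.01 ± 1.40, adjusted p = 1.00 and WT minus KO 0.69 ± 1.38, adjusted p = 1.00. Without replicate 3 of all lines the WT minus CaPS difference was 1.67 for Hand2, 1.395 for Myl4, 1.47 for Mef2c and 2.355 for Tie1 (adjusted p = 1 for each), against 5.74, 3.55 and 5.03 with all libraries for Myl4, Mef2c and Tie1. With all libraries the differences for Pou5f1 were -0.74 ± 0.52, adjusted p = 1.00, 1.24 ± 0.52, adjusted p = 1.00 and -1.10 ± 0.52, adjusted p = 1.00, in the same order of lines. A p that misses the threshold does not show that the lines changed alike. Library quality also differed between lines. On day 10 Gapdh had 17.7, 14.5 and 17.4 CPM in mCaPS and 13.3, 12.8 and 20.2 CPM in libraries labelled KO. In WT it had 3.47, 445 and 128 CPM, and in CaPS 6.09, 399 and 51.1 CPM. Even numbers in replicate 1 of day 10 were 42.1% in WT and 42.6% in CaPS, against 76.65% in mCaPS and 78.6% in KO. For mCaPS and KO, line and library quality cannot be told apart.

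The gene that differed from KO was Grb10, an imprinted adaptor protein that restrains growth (chr11:11930499-12037420 of mm10, minus strand). In WT it had 1225, 1032 and 1073 CPM on day 10, against 604.7, 547.2 and 621.2 CPM on day 6, and rose (log2 change 0.91 ± 0.30, adjusted p = 0.039), a call lost without replicate 1, 2 or 3. In libraries labelled KO it had 9.31, 22.5 and 31.6 CPM on day 10, against 165.7, 100.6 and 147.9 CPM on day 6, so that all day 10 libraries lay above day 6 in WT and below it in the libraries labelled KO. The difference of the changes was 3.62 ± 0.44, adjusted p = 7.86e-05, and 3.09 to 4.05 with an adjusted p of 0.006 to 0.0438 without replicate 1, 2 or 3. In mCaPS it had 818 ± 84.5 CPM on day 10 and 398 ± 28.5 CPM on day 6, and in CaPS 674 ± 174 CPM on day 10 and 466 ± 136 CPM on day 6 (SD, n = 3 each). Lmx1a, a homeobox factor named here because DESeq2 and the fit without replicate 3 also called it for KO, had 4.09, 4.90 and 3.18 CPM on day 10, against 0.0563, 0.109 and 0.167 CPM on day 6 in WT, and 0.404 and 0.637 CPM on average on days 10 and 6 in the libraries labelled KO (difference 5.69 ± 1.05, adjusted p = 0.0645). Isl2 was also among the DESeq2 calls for KO.

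**Figure D5:**
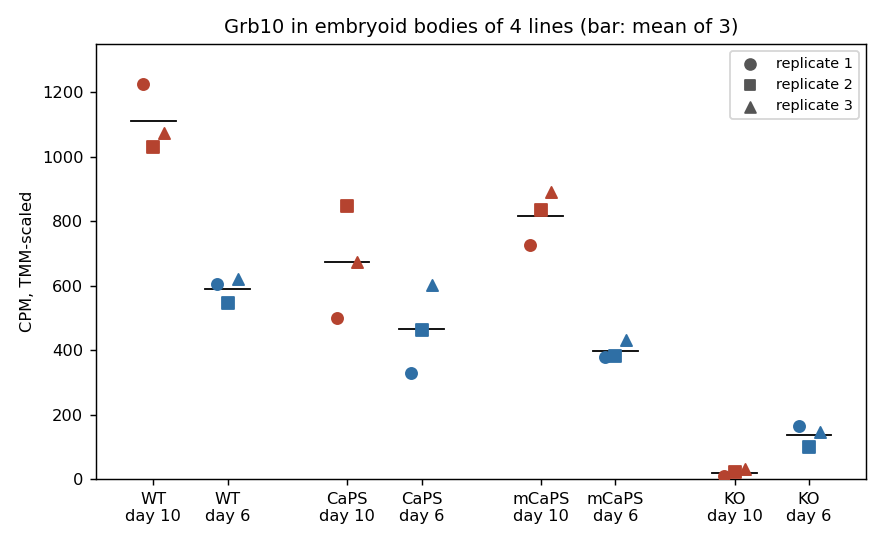
Grb10 level in CPM (vertical axis) in the libraries of 4 lines, day 10 in red left of day 6 in blue within each line, with symbols for replicates 1, 2 and 3 and the mean as a bar. WT libraries sit at 1032 CPM or more on day 10 and at or under 621.2 CPM on day 6, and libraries labelled KO at or under 31.6 CPM on day 10 and at 100.6 CPM or more on day 6.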

How the data were processed

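Embryoid bodies of WT stem cells were measured by sequencing of ribosome-depleted total RNA on days 10 and 6, with 3 libraries a day. Per the labels' protocols, RNA was treated with DNase and the kit for cDNA synthesis keeps the strand. The deposited values are raw read counts per gene made by the authors, with a gene length beside them. The submitters' processing notes name the build mm10 and, as tools, HOMER 4.10.4, edgeR, featureCounts 1.6.3, STAR 2.7.0 and cutadapt 1.14. Which step each made, and the strand and pair settings of the counting, are not given in the sources used here. Of 24984 genes in the table, 23 names turned into dates were left out, and 9 columns of a further line were not used here.

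In R 4.3.3, edgeR 4.0.16 fitted 36 embryoid body libraries in 12 groups (WT, CaPS, mCaPS and KO on days 0, 6 and 10) with TMM scaling and filterByExpr, which kept 17791 genes. The quasi-likelihood test was two-sided and robust, with a common dispersion of 0.152 and Benjamini and Hochberg adjustment over all genes tested. The SE of a change is its size over the square root of F. Intervals and floors (3 counts over the 3 libraries of a day) cover counting error only, at the 95% level. They treat counts as independent, and the mostly even numbers in replicates 2 and 3 put this in doubt, so they may be too narrow. Deposited counts of replicate 1 stand apart from the others. Its totals were the lowest, but more of the counts in replicates 2 and 3 lay on Rn45s and were even numbers. Precision can therefore not be read from the totals. No test of a list was made. The script was tested on simulated data.

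Members and gene lists were chosen with earlier results of these data known. The 546 genes of 35 lists were written from general knowledge, and 544 are in the table. Of these 532 were tested. Named genes are the 12 highest and 12 lowest changes with an adjusted p below 0.05, at least 5 CPM on the higher day and no overlap, the lead genes of each list, its called members by adjusted p up to 6, and the CBX genes. Other genes were named for their role, some after their values were seen. Same-numbered libraries of days 10 and 6 deviated together from their group means across genes, with correlations of 0.57, 0.331 and 0.318. Between different numbers they were -0.437 to -0.379 with replicate 1, and 0.221 and 0.269 between replicates 2 and 3, so that the pattern is mostly replicate 1 against the others. This comes from the data, since the labels state no pairing. DESeq2 1.42.0, limma voom 3.58.1, other scalings and filters, smaller fits, the replicate block and fits without 1 library or 1 number were tried as alternatives. Promoter windows and gene starts are from RefSeq (GRCm38.p6), matched by symbol. A few genes that enter the counts are not reported here by name.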

Additional observations from a re-analysis of the deposited data

Results flagged for a closer look

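The change of Grb10 between day 10 and day 6 differed between lines. The log2 change in WT embryoid bodies minus that in the libraries labelled KO was 3.617 ± 0.441 (edgeR quasi-likelihood test of the difference, adjusted p = 7.86e-05). All 3 WT libraries of day 10 lay above those of day 6, and all 3 libraries labelled KO on day 10 lay below those of day 6. It was the one gene of 17791 past the threshold in that test, and the difference was 3.09, 3.87 and 4.05 without replicate 1, 2 or 3. The rise within WT lost its call without replicate 1, 2 or 3. Library quality differed between WT and the libraries labelled KO, and cannot be told apart from the line.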

How the results depend on the processing

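No gene called here changed sign in any alternative. The number of called genes was 2879 in all, 1613 higher and 1266 lower. With library size alone in place of TMM it was 1260 (919 higher and 341 lower), where the median log2 change of all genes was 0.0999. A fit of the 6 WT libraries alone called 737 genes lower. The other alternatives on tests, scaling and filters stayed within 1.5 times of these counts. Leaving out 1 WT library or 1 replicate number gave 949 to 2475 called genes, 639 to 1390 higher and 310 to 1142 lower, lowest without replicate 1. The cause was not tested.

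The replicate block raised the counts. Within each line in the fit of 36 libraries it called 4415 genes, 2164 of them lower. In the 6 WT libraries it called 5303 (2695 higher and 2608 lower). A replicate block in replicates 2 and 3 of WT, chosen after seeing the data, called 4898 (2537 higher and 2361 lower). Blocked values stand beside the list counts that they move by over 1.5 times and the named genes whose call they change.

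For the differences between lines DESeq2 called 5 genes for CaPS and 5 for KO where edgeR called 0 and 1. Leaving out a replicate number of all lines gave 1 to 2 genes for KO. Of 269 genes named by the stated rules, 77, 36 and 46 no longer passed without replicate 1, 2 or 3, 29 with library size alone and 1 with the replicate block in 36 libraries. Other genes named in the text are not in these counts. Depth limits genes with few counts: if counts are independent, the level that no count allows was 0.0349 CPM on day 10 and 0.0344 CPM on day 6.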
